A study of Homo sapiens with 36 samples.

Results

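AP-1 is the transcription factor made of FOS-family and JUN-family proteins, and the immediate early genes are the genes that cells switch on first after a signal. The 10 genes described here were chosen by name: FOS, FOSL1, FOSL2, JUN, JUNB and JUND, which encode AP-1 subunits, EGR1, IER2 and IER3, which are immediate early genes, and DUSP1, which encodes a phosphatase that switches MAP kinases off. All 10 were measured in each of 3 RNA-seq experiments, among 16431 genes in NT2/D1-A4 cells, 17035 genes in 2102EP-C1 cells given GSK-J4 and 16459 genes in 2102EP-C1 cells with KDM6A/KDM6B-knockdown, or 18078 genes in any of them. Both lines derive from human embryonal carcinoma, a testicular germ cell tumor, and each is 1 clone that had become resistant to cisplatin. In the first and second experiment, cells served as controls or received cisplatin at 0.5 µM for 6 hours, GSK-J4 at 1 µM over 3 days, or both (combination). GSK-J4 inhibits KDM6A and KDM6B, the demethylases that remove the polycomb mark H3K27me3. In the knockdown experiment, 2102EP-C1 cells carried the empty lentiviral vector pLKO.1 or hairpins against both enzymes (sh6A+6B), each with or without cisplatin. According to the methods, 1 hairpin per enzyme was used, cells with both hairpins were selected with puromycin and neomycin, and cells were harvested a day after cisplatin. The 4 arms of every experiment held 3 libraries apiece, 36 libraries in all. The design text calls them biological triplicates without stating separate cultures, so p-values measure the spread between these libraries.

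AP-1 proteins bind DNA as pairs through a leucine zipper. JUN proteins can pair with one another, while FOS proteins need a JUN partner, and the makeup of the pair sets how strongly a target gene is read. Growth factors and stress act through MAP kinases, which phosphorylate JUN and the ETS partners of serum response factor (SRF), and the FOS and EGR1 genes are the classic targets of SRF. Induction of FOS, EGR1 and IER2 after a signal peaks early and is brief, whereas FOSL1 and FOSL2 follow later, and DUSP1 closes the loop by removing phosphate from the kinases. DNA damage by cisplatin is known to activate the stress kinases JNK and p38 in many cell types.

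Values are CPM, the read count of a gene scaled to the size of its library, on a log2 scale. Depth on reads recovered from them was 26842718 to 49521740 reads per library in NT2/D1-A4, 30250275 to 53645086 reads in 2102EP-C1 given GSK-J4 and 79382033 to 100872653 reads for the knockdown. All 12 embryonal carcinoma markers examined were measured, and at least 11 of them exceeded 10 CPM in each arm, the exception being ZFP42 in 2102EP-C1. Their summed level in control libraries was 10300 to 10500 CPM in NT2/D1-A4, 12900 to 13300 CPM in 2102EP-C1 and 12200 CPM with pLKO.1, and after GSK-J4 or sh6A+6B it was 8950 to 9190, 11500 to 11800 and 11600 to 11800 CPM. The median over the 12 markers was 498, 761 and 727 CPM in these controls and 467, 734 and 718 CPM after GSK-J4 or sh6A+6B. Of 16 markers of other cells, 9, 9 and 8 were measured, with sums of 75.4 to 120 CPM over all libraries, and GPC3 was the highest of them at means of 37.5 to 52.7 CPM. The part of these shifts in the results below was not tested. In the knockdown check, KDM6A fell from 7.16 ± 0.01 to 6.15 ± 0.06 log2 CPM and KDM6B from 4.63 ± 0.02 to 3.62 ± 0.12 (mean ± SD, n = 3), by 1.01 each on the log2 scale. With GSK-J4 alone, KDM6B RNA was higher by 0.88 ± 0.06 in NT2/D1-A4 and 0.81 ± 0.07 in 2102EP-C1 (log2 scale, SE). KDM6A RNA differed by 0.06 ± 0.04 and 0.06 ± 0.03.

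Promoters were read for the 8 members that the RefSeq promoter table holds, as the 250 bases before the RefSeq gene start on GRCh38.p14. FOSL1 and IER3 had no entry. Counting was per gene, so these sequences describe the genes and were not measured. The search took the TPA response element, the classic AP-1 site (TRE, TGACTCA), the cAMP response element (CRE, TGACGTCA), the variant AP-1 site of the JUN promoter (TGACATCA) and the CArG box bound by SRF, each on both strands, and no match of one overlapped another. Among all 35116 promoters of that length, 4.2% held a TRE, 1.65% a CRE, 2.37% the JUN-type site and 1.16% a CArG box. The 3 sequences below are shown because JUN and JUND moved together under GSK-J4 and EGR1 moved with cisplatin in the results that follow. Capitals mark the matches of these motifs, and each sequence runs 5′ to 3′ on the strand of its gene.
JUN promoter, chr1:58784048-58784297, minus strand: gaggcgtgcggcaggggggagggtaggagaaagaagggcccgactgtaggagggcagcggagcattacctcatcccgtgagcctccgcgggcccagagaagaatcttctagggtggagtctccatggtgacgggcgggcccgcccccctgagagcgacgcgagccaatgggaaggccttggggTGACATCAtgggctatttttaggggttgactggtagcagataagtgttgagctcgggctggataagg
JUND promoter, chr19:18281623-18281872, minus strand: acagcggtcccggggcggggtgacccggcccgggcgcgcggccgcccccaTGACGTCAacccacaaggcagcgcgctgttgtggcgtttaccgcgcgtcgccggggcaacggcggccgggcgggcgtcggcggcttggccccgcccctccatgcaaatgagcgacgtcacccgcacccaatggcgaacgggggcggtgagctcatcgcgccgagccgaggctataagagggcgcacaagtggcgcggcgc
EGR1 promoter, chr5:138465229-138465478, plus strand: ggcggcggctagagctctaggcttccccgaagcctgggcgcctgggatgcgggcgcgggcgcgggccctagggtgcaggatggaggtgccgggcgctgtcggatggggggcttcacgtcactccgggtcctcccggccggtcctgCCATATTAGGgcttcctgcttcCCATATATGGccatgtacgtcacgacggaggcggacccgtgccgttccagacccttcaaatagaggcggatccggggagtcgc
The JUN-type site began 67 bases before the JUN start, position -67, and the JUND promoter had a CRE at position -200. EGR1 held 2 CArG boxes, at positions -105 and -83. DUSP1 had a CRE at position -125, and the windows of FOS, FOSL2, JUNB and IER2 held no match of the 4 motifs. Sites outside these 250 bases were not searched. The FOSL2 window, from 28392608 to 28392857 on chromosome 2, lies after the gene start of GENCODE release 44, at 28392448.

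Per transcript length, the members covered a wide range of levels in control cells. IER2, a short immediate early gene with roles in transcription, was the highest at 25.7, 31.2 and 25.5 RPKM (CPM per kilobase of transcript) in the controls of NT2/D1-A4, 2102EP-C1 and the pLKO.1 cells. JUND, the AP-1 subunit that most cells make without stimulation, was next at 14, 20.5 and 20.3 RPKM. FOSL2, a FOS-family subunit, was the lowest in every control at 0.369, 0.257 and 0.277 RPKM.

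The order between these ends differed between the lines. EGR1, a zinc finger factor, followed JUND in NT2/D1-A4 at 6.80 RPKM and stood just above FOSL2 in both 2102EP-C1 experiments at 0.867 and 0.877 RPKM. FOSL1, a FOS-family subunit, stood at 6.53 RPKM beside EGR1 in NT2/D1-A4, and their libraries overlapped. IER3, DUSP1 and JUN lay at 3.36, 3.24 and 3.02 RPKM in the same cells, and each of these neighbors overlapped the next. In 2102EP-C1 controls the only neighbors whose libraries overlapped were FOSL1 at 3.40 and IER3 at 3.28 RPKM, and in pLKO.1 cells no neighbors did. The tables were normalized separately, so levels between experiments were set side by side without a test. FOS lay at 3.72, 6.37 and 4.69 RPKM and JUNB at 0.815, 1.32 and 1.43 RPKM in the order of experiments given above.

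**Figure D1:**
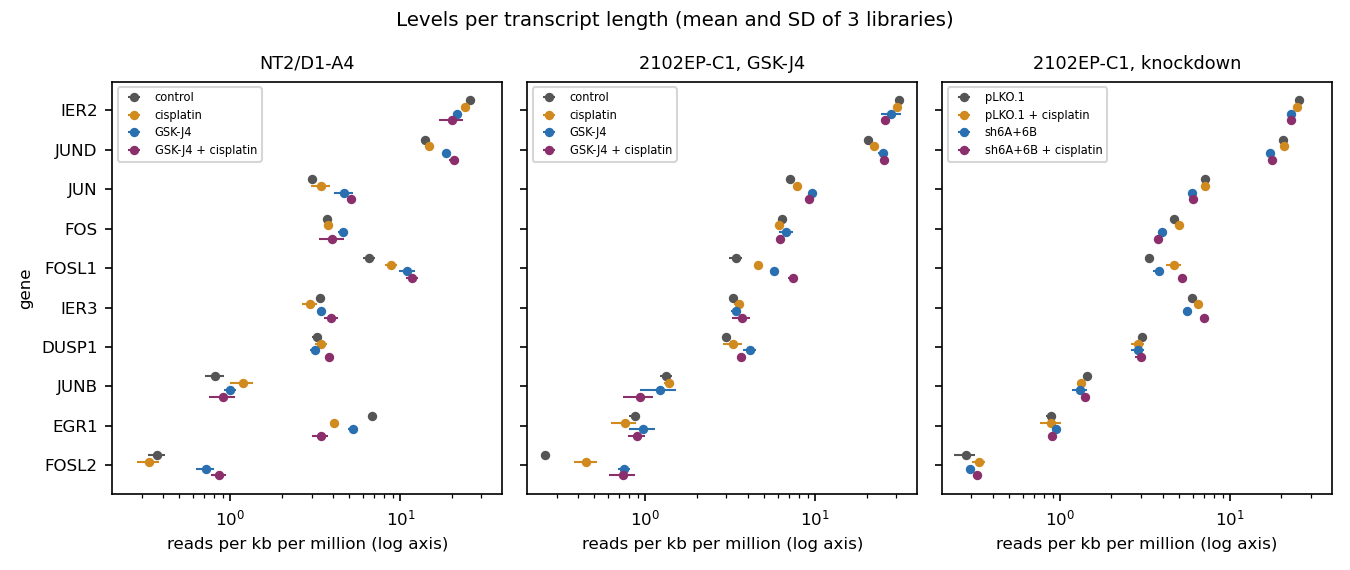
Level per transcript length of the 10 genes in the 4 arms of each experiment, in RPKM on a log axis, where points are means and bars are SD over 3 libraries. IER2 and JUND lie at the right and FOSL2 at the left in every arm, and EGR1 lies near 6.80 in NT2/D1-A4 controls but under 1 in 2102EP-C1 controls.

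GSK-J4 alone raised 4 members in each line, and 0 were called lower, with EGR1 in NT2/D1-A4 at the edge of the fold limit. FOSL1, FOSL2 and JUN rose in both lines, JUND rose in NT2/D1-A4, and DUSP1 rose in 2102EP-C1. Genes were called where the fold change exceeded 1.3 in either direction with an adjusted p below 0.05 (limma-trend on the log2 values, two-sided, Benjamini-Hochberg over all genes of the experiment). In NT2/D1-A4 that was 4 of 10 members against 20.3% of all genes called in either direction, and in 2102EP-C1 it was 4 of 10 against 10.9%. The median log2 fold change of the members was 0.30 and 0.22, where the median of all genes was 0.008 and -0.002. In bulk RNA, fewer cells with a transcript and less of it per cell cannot be told apart.

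**Figure D2:**
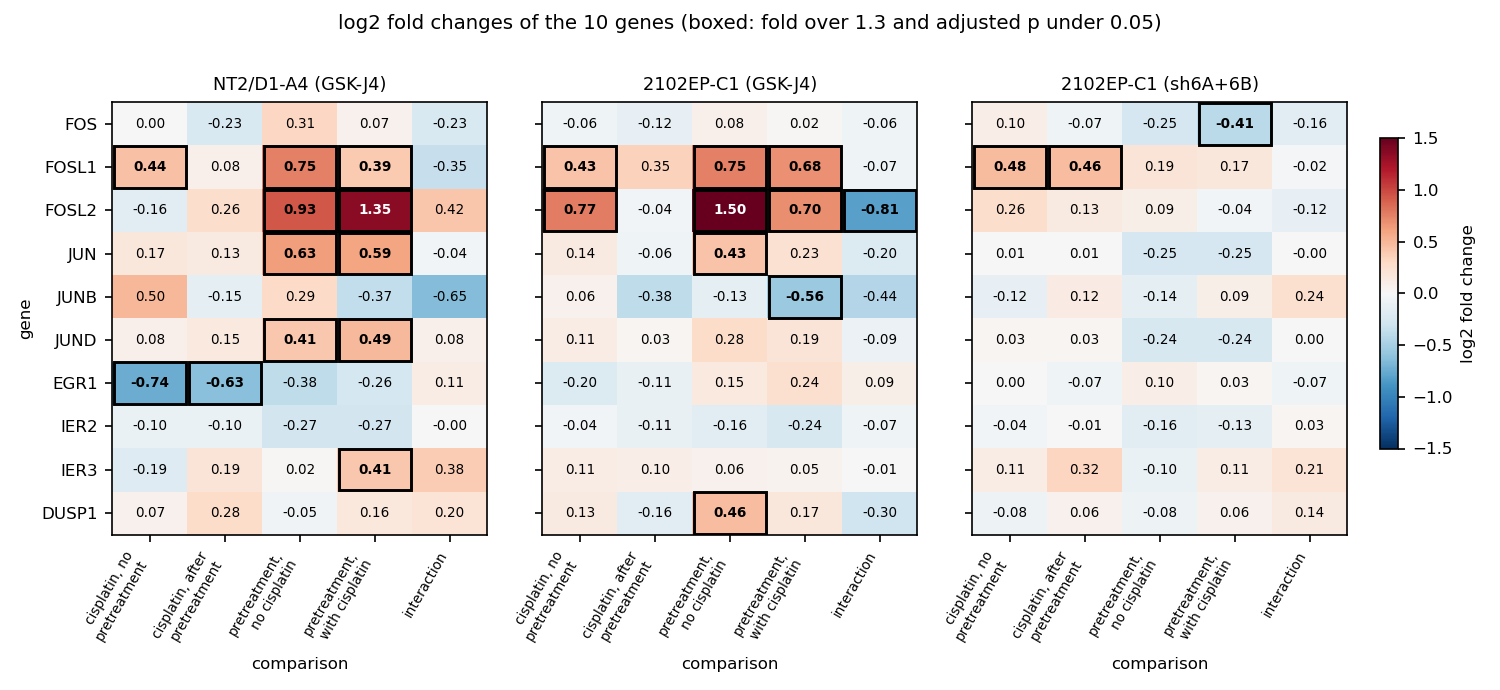
log2 fold changes of the 10 genes in 5 comparisons per experiment, as color and number, with a box around called genes (fold change past 1.3, adjusted p below 0.05). Pretreatment without cisplatin has 4 boxes in each GSK-J4 experiment and 0 in the knockdown experiment.

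FOSL2 had the widest spread of arm means of the 10, up to 1.5 log2 units within an experiment. The gene lies on chromosome 2 from 28392448 to 28417317 on the plus strand (GENCODE release 44, GRCh38; GeneID 2355). In 2102EP-C1 it measured 0.88, 0.89 and 0.79 log2 CPM in the control libraries and 2.48, 2.33 and 2.25 with GSK-J4. Every GSK-J4 library stood more than 1 log2 unit above every control. The rise was 1.5 ± 0.13 on the log2 scale (SE), or 2.83-fold (adjusted p = 1.6e-09). In NT2/D1-A4, controls gave 1.48, 1.42 and 1.16 and GSK-J4 libraries gave 2.13, 2.24 and 2.47 log2 CPM, again without overlap. That rise was 0.93 ± 0.13, or 1.90-fold (adjusted p = 8.5e-06). These values rest on few reads, 61 to 88 per control library in 2102EP-C1 and 64 to 110 in NT2/D1-A4. The span of FOSL2 shares 2233 bases with that of the antisense gene FOSL2-AS1, and the strand setting of the count is not given in the sources used here.

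FOSL1, the other late FOS-family gene, rose by 0.75 on the log2 scale in both lines. It lies on chromosome 11 from 65892049 to 65900573 on the minus strand (GeneID 8061). NT2/D1-A4 controls measured 3.61, 3.42 and 3.41 log2 CPM and GSK-J4 libraries 4.21, 4.09 and 4.39, a rise of 0.75 ± 0.08 (SE, adjusted p = 7e-07). In 2102EP-C1 it went from 2.40, 2.60 and 2.64 in controls to 3.30 in each GSK-J4 library, also by 0.75 ± 0.08 (adjusted p = 3.2e-08). Neither pair of groups overlapped.

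**Figure D3:**
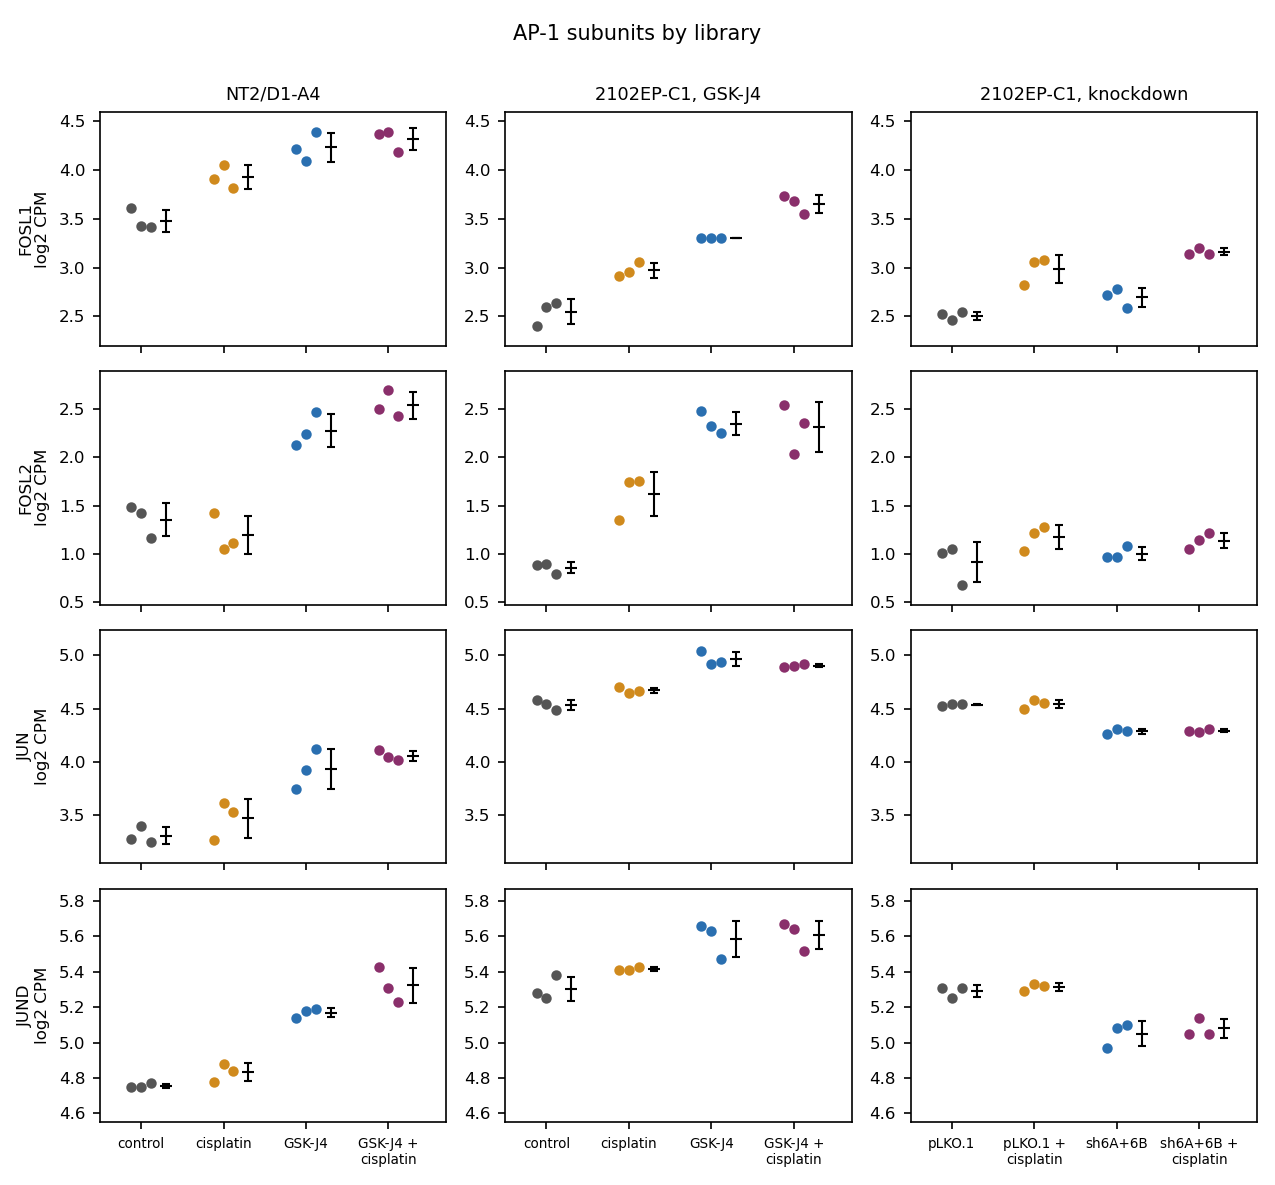
log2 CPM of FOSL1, FOSL2, JUN and JUND in each library (points) with the mean and SD of 3 libraries (bars) by arm in the 3 experiments. FOSL2 in 2102EP-C1 runs from 0.79 to 0.89 in controls and 2.25 to 2.48 with GSK-J4, while JUN and JUND are lower in the sh6A+6B libraries than in the pLKO.1 libraries.

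JUN encodes c-Jun, the main AP-1 partner and the target of the kinase JNK, and lies on chromosome 1 from 58776845 to 58784048 as a single exon (GeneID 3725). In NT2/D1-A4 it measured 3.28, 3.40 and 3.25 log2 CPM in controls and 3.75, 3.93 and 4.12 with GSK-J4, a rise of 0.63 ± 0.09 (SE, adjusted p = 1.5e-05). In 2102EP-C1 it rose from 4.58, 4.54 and 4.49 to 5.04, 4.92 and 4.94, by 0.43 ± 0.05 (adjusted p = 8.2e-08). All GSK-J4 libraries lay above all controls in both lines. JUND, the constitutive subunit (chromosome 19 from 18279694 to 18281622, GeneID 3727), was tight among replicates, with 4.75, 4.75 and 4.77 in NT2/D1-A4 controls and 5.14, 5.18 and 5.19 after GSK-J4. Its rise was 0.41 ± 0.05 (adjusted p = 2.4e-06), or 1.33-fold, just inside the fold limit. In 2102EP-C1 JUND went from 5.28, 5.25 and 5.38 to 5.66, 5.63 and 5.47, without overlap, and was higher by 0.28 ± 0.05 (adjusted p = 8.1e-05), or 1.21-fold, which is outside that limit.

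FOS and JUNB, which encode the prototype FOS subunit and a JUN subunit with weaker activity, were not called with GSK-J4 alone. FOS lies on chromosome 14 from 75278826 to 75282230 (GeneID 2353) and JUNB on chromosome 19 from 12791486 to 12793315 (GeneID 3726). FOS measured 2.98 ± 0.01 log2 CPM in NT2/D1-A4 controls and 3.29 ± 0.09 with GSK-J4 (SD, n = 3), a difference of 0.31 ± 0.10 (SE, adjusted p = 0.013) with no overlap that stayed under the fold limit. In 2102EP-C1 the FOS libraries overlapped, with a difference of 0.08 ± 0.07 (adjusted p = 0.4). JUNB was a low gene, at 50 to 55 reads per NT2/D1-A4 control library, and the difference was 0.29 ± 0.16 there (adjusted p = 0.15) and -0.13 ± 0.16 in 2102EP-C1 (adjusted p = 0.58). All 1830 bases of JUNB lie within the span of HOOK2 on the other strand, introns included. The strand setting is not stated, and whether HOOK2 reads entered the JUNB count was not tested.

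Among the other members with GSK-J4 alone, EGR1, IER2 and IER3 were not called in either line, and DUSP1 rose in 2102EP-C1. EGR1 in NT2/D1-A4 measured 4.41, 4.40 and 4.45 log2 CPM in controls and 3.99, 4.13 and 4.0 with GSK-J4, lower by 0.38 ± 0.07 (adjusted p = 0.00023) and 0.77 times the control level, at the edge of the fold limit. It was called as a fall without GSK-J4 replicate 2, control replicate 1 or control replicate 2, with a prior count of 0.5, and at a fold change over 1.2 with an adjusted p under 0.001. IER2 measured 5.75, 5.74 and 5.81 log2 CPM in NT2/D1-A4 controls and 5.42, 5.54 and 5.53 with GSK-J4. It was lower by 0.27 ± 0.08 (adjusted p = 0.0081) there and by 0.16 ± 0.06 (adjusted p = 0.03) in 2102EP-C1, in both cases without overlap and under the fold limit. IER2 lies on chromosome 19 from 13150411 to 13154911 (GeneID 9592). IER3, an immediate early gene with roles in cell survival, differed by 0.02 ± 0.10 and 0.06 ± 0.11, with overlap in both lines (adjusted p = 0.87 and 0.72). DUSP1 rose in 2102EP-C1 from 2.64, 2.61 and 2.56 to 3.08, 3.18 and 2.93 log2 CPM, by 0.46 ± 0.09 (adjusted p = 0.00023), while in NT2/D1-A4 the groups overlapped and the difference was -0.05 ± 0.09 (adjusted p = 0.67). IER3 lies on chromosome 6 from 30743199 to 30744548 (GeneID 8870) and DUSP1 on chromosome 5 from 172768096 to 172771195 (GeneID 1843). Their spans, like that of IER2, overlap noncoding genes on the other strand. Whether reads of those genes entered the counts was not tested.

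**Figure D4:**
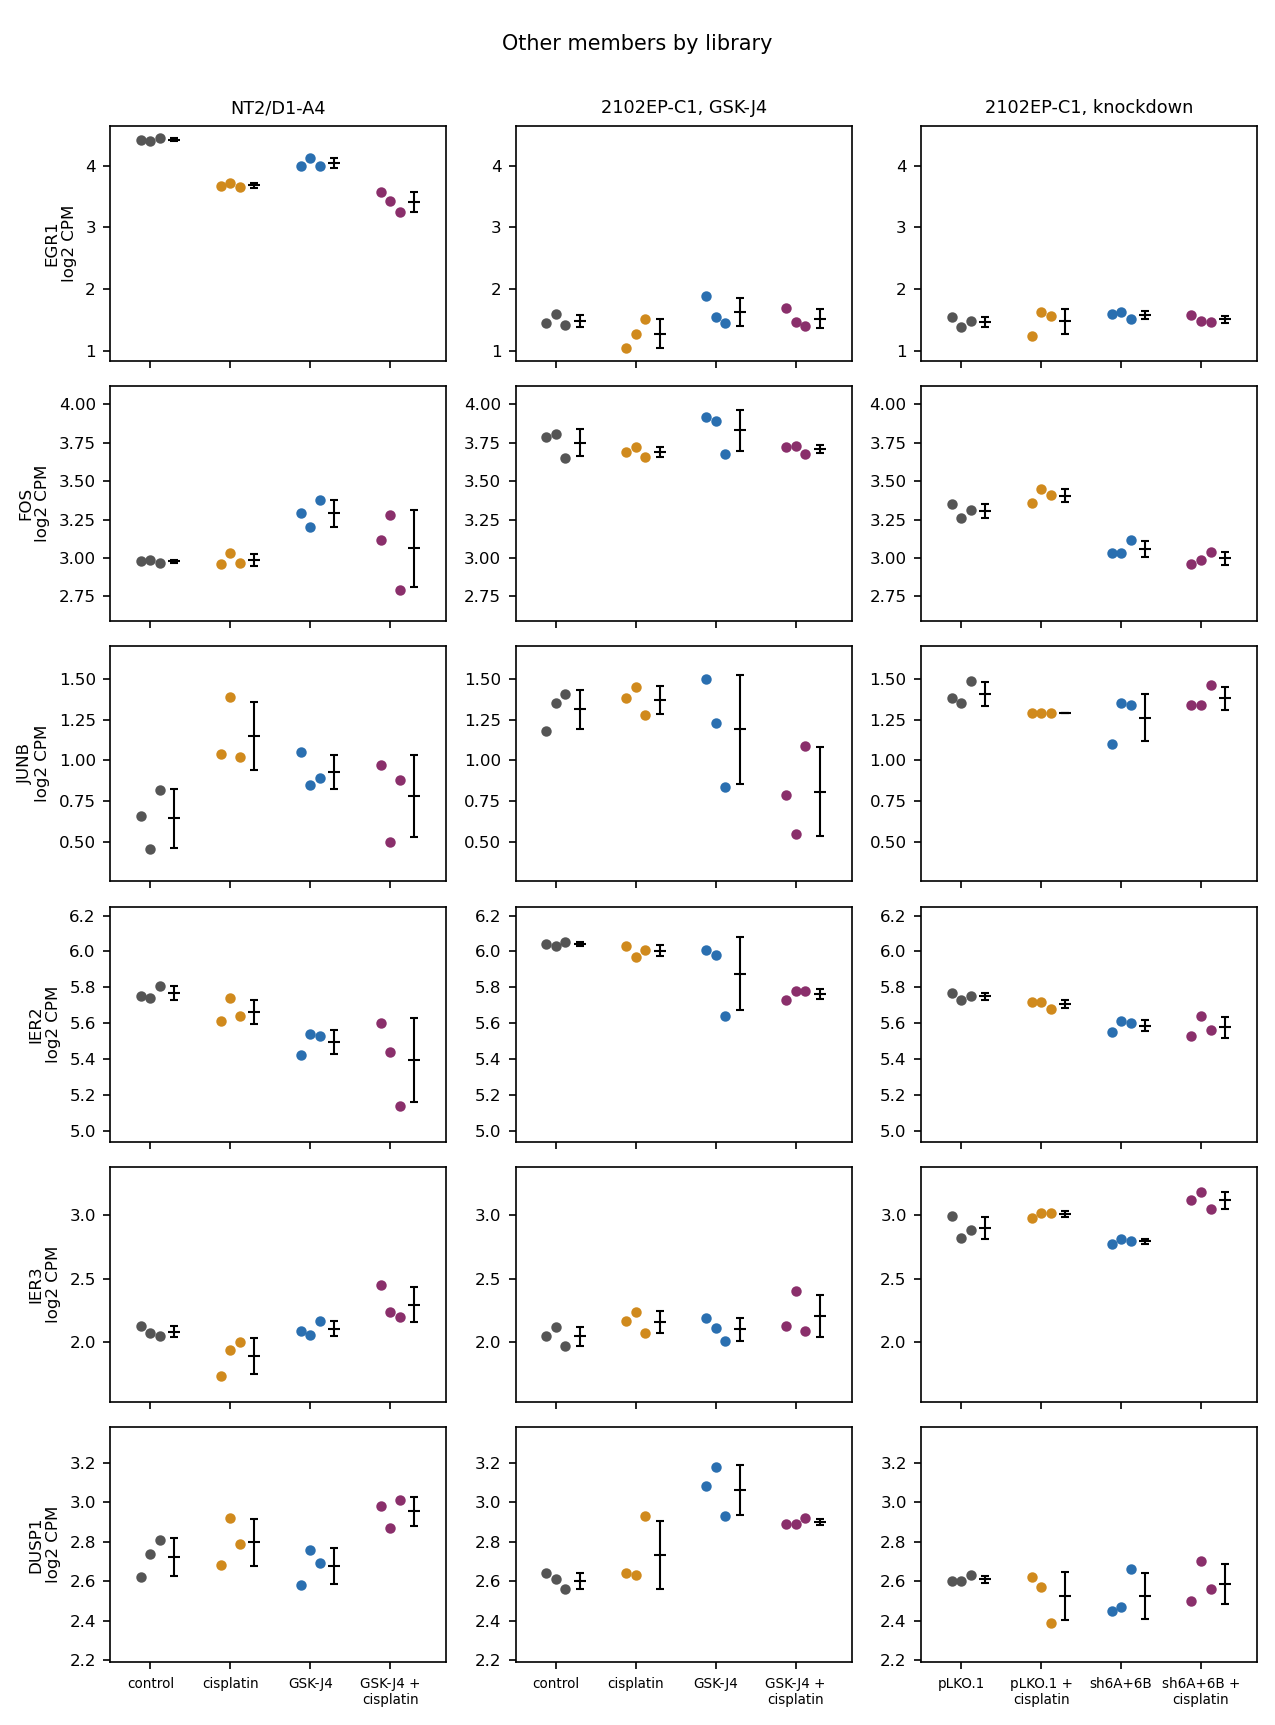
log2 CPM of EGR1, FOS, JUNB, IER2, IER3 and DUSP1 in each library (points) with the mean and SD of 3 libraries (bars) by arm in the 3 experiments. EGR1 in NT2/D1-A4 lies at 4.40 to 4.45 in controls and at 3.65 to 3.72 with cisplatin, while in 2102EP-C1 all arms lie between 1.04 and 1.89.

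Knockdown of both demethylases gave another picture for the same genes. With sh6A+6B alone, 0 of 10 members passed both thresholds under limma-trend and under voom on the recovered reads, where 12.1% of all genes did. With no fold limit, 5 of 10 members had an unadjusted p under 0.05, for which no share of all genes was counted. An adjusted p under 0.05 was also held by 5 of 10, where 52.8% of all genes had one. Of these, FOS, JUN, JUND and IER2 were lower and FOSL1 was higher. JUN measured 4.53, 4.54 and 4.54 log2 CPM with pLKO.1 and 4.26, 4.31 and 4.29 with sh6A+6B. These groups did not overlap, and the difference was -0.25 ± 0.03 (SE, adjusted p = 4.6e-07), or 0.84 times the pLKO.1 level. JUND went from 5.31, 5.25 and 5.31 to 4.97, 5.08 and 5.10, a difference of -0.24 ± 0.03 (adjusted p = 1.5e-06), again without overlap. FOS and IER2 differed by -0.25 ± 0.05 and -0.16 ± 0.03 (adjusted p = 7.7e-05 and 2.8e-05). FOSL1 was higher by 0.19 ± 0.06 (adjusted p = 0.013) and FOSL2 differed by 0.09 ± 0.10 with overlap (adjusted p = 0.48). JUN and JUND thus stood above their controls with GSK-J4 and below them with sh6A+6B in 2102EP-C1. The difference between the 2 kinds of pretreatment was not tested, since they were measured in separately normalized tables. FOSL2 was 2.83-fold higher with GSK-J4 and 1.06 times the pLKO.1 level with sh6A+6B.

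Cisplatin alone raised FOSL1 in all 3 experiments. The rise was 0.44 ± 0.08 in NT2/D1-A4, 0.43 ± 0.08 in 2102EP-C1 and 0.48 ± 0.06 in pLKO.1 cells (SE, log2 scale; adjusted p = 0.003, 0.0013 and 1.8e-06). The cisplatin libraries measured 3.91, 4.05 and 3.81 log2 CPM in NT2/D1-A4, 2.91, 2.95 and 3.06 in 2102EP-C1, and 2.82, 3.06 and 3.08 with pLKO.1, against 2.52, 2.46 and 2.54 in pLKO.1 cells without cisplatin. None of these groups overlapped its control. At 1.35-fold and 1.34-fold, the first and second rise lay close to the fold limit. They came under it at 0.37 without NT2/D1-A4 cisplatin replicate 2 and at 0.35 without 2102EP-C1 control replicate 1. Members called were 2 of 10 in NT2/D1-A4 against 2.45% of all genes, 2 of 10 in 2102EP-C1 against 1.07%, and 1 of 10 with pLKO.1 against 3.00%, and without those 2 libraries the first and second count were 1 each.

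The other member called with cisplatin in NT2/D1-A4 was EGR1, which fell. EGR1 lies on chromosome 5 from 138465479 to 138469303 (GeneID 1958) and encodes the SRF target whose 2 CArG boxes are printed above. Its cisplatin libraries measured 3.67, 3.72 and 3.65 log2 CPM, each below the controls at 4.41, 4.40 and 4.45. EGR1 fell by 0.74 on the log2 scale (SE 0.07, adjusted p = 3.1e-06), to 0.60 times the control level. In 2102EP-C1, where EGR1 rested on 92 to 137 reads per control library, the groups overlapped at 1.48 ± 0.10 and 1.28 ± 0.24 log2 CPM (SD, n = 3; adjusted p = 0.5). With pLKO.1 both arms averaged 1.48 (adjusted p = 1.0). The difference between the lines was not tested.

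FOSL2 was the second member called with cisplatin in 2102EP-C1. Its cisplatin libraries measured 1.35, 1.75 and 1.76 log2 CPM, all above the controls, a rise of 0.77 ± 0.13 (SE, adjusted p = 0.00067). In pLKO.1 cells of the same line the groups overlapped, at 0.91 ± 0.21 and 1.17 ± 0.13 log2 CPM (SD, n = 3), with a difference of 0.26 ± 0.10 (adjusted p = 0.047). NT2/D1-A4 libraries overlapped as well, with a difference of -0.16 ± 0.13 (adjusted p = 0.5). JUNB in NT2/D1-A4 stood at 0.66, 0.46 and 0.82 in controls and 1.04, 1.39 and 1.02 with cisplatin, without overlap. This difference of 0.50 ± 0.16 had an adjusted p of 0.053, and adjusted p ran from 0.04 to 0.046 without any 1 of the 3 combination libraries, which took the count of members called to 3. JUNB was also called with only the compared groups fitted (adjusted p = 0.041) and with scaling to total reads (adjusted p = 0.044). FOS differed from its control by at most 0.10 on the log2 scale with cisplatin alone in the 3 experiments, with adjusted p of 0.98, 0.72 and 0.1.

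Cisplatin given after GSK-J4 lowered EGR1 in NT2/D1-A4 as well. The combination libraries measured 3.58, 3.42 and 3.25 log2 CPM, below all GSK-J4 libraries, and EGR1 fell by 0.63 (SE 0.07, adjusted p = 0.00014). It was the only member called, where 0.377% of all genes were. In 2102EP-C1 after GSK-J4, 0 of 10 members were called under limma-trend and under voom against 2.22% of all genes. FOSL1 and JUNB, 2 members, had an unadjusted p under 0.05, for which no share of all genes was counted. FOSL1 there went from 3.30 to 3.73, 3.68 and 3.55 log2 CPM, higher by 0.35 ± 0.08 (adjusted p = 0.0034), or 1.28-fold. JUNB differed by -0.38 ± 0.16 (adjusted p = 0.11). Without combination replicate 3 both passed, at 0.41 and -0.52, and without GSK-J4 replicate 3 JUNB passed at -0.56. In sh6A+6B cells 1 of 10 members was called against 3.52% of all genes. That was FOSL1, with 2.72, 2.78 and 2.59 log2 CPM before and 3.14, 3.20 and 3.14 after cisplatin, a rise of 0.46 ± 0.06 (adjusted p = 1.5e-06). IER3 in the same cells went from 2.77, 2.81 and 2.80 to 3.12, 3.18 and 3.05, higher by 0.32 ± 0.05 (adjusted p = 1.4e-05), or 1.25-fold, under the fold limit.

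Among cisplatin-treated cells, GSK-J4 raised FOSL1 and FOSL2 in both lines, JUN, JUND and IER3 in NT2/D1-A4, and lowered JUNB in 2102EP-C1. In NT2/D1-A4, 5 of 10 members rose in the combination compared with cisplatin, against 20.7% of all genes called. FOSL2 rose by 1.35 ± 0.13 from cisplatin libraries at 1.42, 1.05 and 1.11 to combination libraries at 2.50, 2.70 and 2.43 log2 CPM (SE, adjusted p = 9.1e-08). JUN rose by 0.59 ± 0.09, JUND by 0.49 ± 0.05 and FOSL1 by 0.39 ± 0.08 (adjusted p = 3.5e-05, 2.9e-07 and 0.00079). IER3 rose by 0.41 ± 0.10 (adjusted p = 0.0026), from 1.73, 1.94 and 2.00 to 2.45, 2.24 and 2.20 log2 CPM without overlap. FOSL1 and IER3 were near the fold limit. FOSL1 came under it without cisplatin replicate 3 or combination replicate 1 or 2, at 0.34 to 0.36, and IER3 without cisplatin replicate 1 or combination replicate 1, at 0.33 in both cases. Lower without overlap but not called were EGR1 by 0.26 ± 0.07 and IER2 by 0.27 ± 0.08 (adjusted p = 0.005 and 0.0077). JUNB was lower by 0.37 ± 0.16, also without overlap (adjusted p = 0.065), and was called without combination replicate 1.

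In 2102EP-C1 the same comparison called 3 of 10 members against 19.3% of all genes. FOSL1 rose by 0.68 ± 0.08 and FOSL2 by 0.70 ± 0.13 (SE, adjusted p = 8.2e-08 and 0.0001). JUNB fell by 0.56 on the log2 scale (SE 0.16, adjusted p = 0.0052), from 1.38, 1.45 and 1.28 to 0.79, 0.55 and 1.09 log2 CPM, without overlap, and was not called at an adjusted p under 0.001. JUN and JUND were higher by 0.23 ± 0.05 and 0.19 ± 0.05, and IER2 was lower by 0.24 ± 0.06, all with an adjusted p of 0.0023 or less and under the fold limit. Between sh6A+6B and pLKO.1 cells given cisplatin, 1 of 10 members was called against 15.2% of all genes. That was FOS, with 3.36, 3.45 and 3.41 in pLKO.1 cells and 2.96, 2.99 and 3.04 log2 CPM in sh6A+6B cells. FOS fell by 0.41 (SE 0.05, adjusted p = 3.5e-08), and the groups did not overlap. JUN and JUND differed by -0.25 ± 0.03 and -0.24 ± 0.03 as they did without cisplatin.

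Whether pretreatment changed the response to cisplatin was tested as the difference of the cisplatin effects with and without it. FOSL2 in 2102EP-C1 was the only member called, 1 of 10 against 0.857% of all genes. Its cisplatin effect was 0.77 without GSK-J4 and -0.04 after it, where the combination libraries at 2.55, 2.04 and 2.36 log2 CPM overlapped the GSK-J4 libraries. The difference of the effects was -0.81 ± 0.19 (SE, adjusted p = 0.021). It was -0.67 to -0.82 with an adjusted p of 0.05 to 0.085 without any 1 of 6 libraries, namely control replicate 1 or 3, cisplatin replicate 2 or 3, GSK-J4 replicate 1 and combination replicate 2. In NT2/D1-A4 the same difference for FOSL2 was 0.42 ± 0.18 (adjusted p = 0.69). There 0 of 10 members were called under limma-trend and under voom against 0.0426% of all genes. An unadjusted p under 0.05, for which no share of all genes was counted, was held by 4 members. These were FOSL1 at -0.35, FOSL2, JUNB at -0.65 and IER3 at 0.38. In the knockdown experiment 0 of 10 were called by either tool against 3.77% of all genes. FOS and IER3, 2 members, had an unadjusted p under 0.05 there, again without a share of all genes counted. FOS had a difference of -0.16 ± 0.06 (adjusted p = 0.054). IER3 there had a difference of 0.21 ± 0.07 (adjusted p = 0.024) under the fold limit.

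Other genes of the pathway were taken from 5 lists chosen by function. Among 29 measured other immediate early genes, 12 rose and 1 fell with GSK-J4 alone in NT2/D1-A4, where 13.8% of all genes rose and 6.48% fell, and their median log2 fold change was 0.21. BTG2, an antiproliferative gene under p53 control, rose the most at 2.23 ± 0.07 (SE, log2 scale; adjusted p = 5.1e-15), and ZFP36L2, a gene for an RNA-decay factor, fell by 0.49. In 2102EP-C1, 8 of the 29 rose, against 7.79% of all genes, with a median of 0.08 over the list. With sh6A+6B, 2 rose and 2 fell, against 6.34% and 5.74% of all genes. CCN2, a matrix protein gene, rose by 0.56 ± 0.03, and NR4A1, an orphan nuclear receptor gene, fell by 0.89 on the log2 scale (SE 0.08).

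Of the other AP-1 dimer partners, 3 of 12 rose and 1 fell with GSK-J4 in NT2/D1-A4, and 3 of 13 rose in 2102EP-C1. Among all genes, 13.8% rose and 6.48% fell in NT2/D1-A4, and 7.79% rose in 2102EP-C1. ATF3, a stress-induced partner of JUN proteins that is also on the immediate early list, rose the most on both lists in 2102EP-C1 and on the partner list in NT2/D1-A4. It went from a mean of 3.75 to 5.34 log2 CPM in NT2/D1-A4, by 1.59 ± 0.05, and from 3.6 to 5.31 in 2102EP-C1, by 1.70 ± 0.07 (SE, adjusted p = 1.4e-14 and 4.4e-16). MAFK, a small MAF gene, fell by 0.47 in NT2/D1-A4. With sh6A+6B the partner called was MAF, at 0.46 ± 0.14 higher, 1 of 13, where 12.1% of all genes were called. MAF was a low gene, at means of -0.44 log2 CPM with pLKO.1 and 0.03 with sh6A+6B.

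The kinases and SRF partners upstream included calls in NT2/D1-A4 and the knockdown experiment. Of 23 measured, 1 fell with GSK-J4 in NT2/D1-A4, namely MAP2K6, a kinase upstream of p38, by 0.64 (SE 0.05), where 20.3% of all genes were called, and 0 were called in 2102EP-C1, against 10.9%. With sh6A+6B, 1 rose and 2 fell, against 12.1% of all genes called. MAPK10, the neuronal JNK, rose by 0.72 ± 0.07, and the larger fall was in MAPK11, a p38 kinase, by 0.71 (SE 0.17). MAPK11 was a low gene, at means of -0.47 log2 CPM with pLKO.1 and -1.18 with sh6A+6B. The medians of this list were -0.08, 0.03 and -0.02 in the 3 experiments. Of 14 measured other dual specificity phosphatases and Sprouty-type brakes, 3 rose and 4 fell in NT2/D1-A4, 1 rose in 2102EP-C1 and 1 rose with sh6A+6B. Of all genes, 20.3%, 10.9% and 12.1% were called in these comparisons. The phosphatases called included DUSP14 at 0.83 ± 0.06 higher and DUSP5 at -0.84 ± 0.05 in NT2/D1-A4. DUSP8 was 1.03 ± 0.17 higher in 2102EP-C1, at low means of 0.02 log2 CPM in controls and 1.05 with GSK-J4. DUSP6, the ERK phosphatase, was 0.86 ± 0.04 higher with sh6A+6B.

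Of 15 measured textbook AP-1 targets, 7 rose in NT2/D1-A4 and 5 in 2102EP-C1 with GSK-J4, where 13.8% and 7.79% of all genes rose. The list medians were 0.14 and 0.17. With sh6A+6B, 3 of the 15 rose and 1 fell, against 6.34% and 5.74% of all genes, with a list median of 0.03. VIM, the gene of the mesenchymal filament vimentin, rose by 0.70 ± 0.02, and MMP9, a matrix protease gene, fell by 0.61 (SE 0.07). With cisplatin alone, 4, 2 and 1 of the 15 targets, 4, 2 and 2 of the 29 immediate early genes and 2, 0 and 1 of the partners rose in NT2/D1-A4, 2102EP-C1 and pLKO.1 cells, where 2.05%, 0.881% and 2.53% of all genes did.

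The genes whose arm means ran closest to those of FOSL2 were IGFBP3, CPEB2 and GADD45A. After centering within each experiment, the root mean square difference over 12 arm means was 0.150, 0.153 and 0.165 log2 units, where the median over 11464 genes in all 3 experiments was 0.503 and the lowest 1% lay under 0.259. With GSK-J4 alone, IGFBP3, which encodes a binding protein of insulin-like growth factors, rose by 1.28 ± 0.09 in NT2/D1-A4 and 1.05 ± 0.07 in 2102EP-C1 (SE). GADD45A, a growth arrest gene induced by DNA damage, rose by 1.08 ± 0.05 and 0.90 ± 0.05, and CPEB2, which encodes an RNA-binding protein, rose by 1.09 ± 0.07 and 0.94 ± 0.09. With sh6A+6B alone the 3 genes differed by 0.13 ± 0.04, 0.18 ± 0.04 and 0.06 ± 0.09, in the order IGFBP3, GADD45A and CPEB2, none past the fold limit. With cisplatin alone in 2102EP-C1 they differed by 0.29, 0.22 and 0.25 in that order, where FOSL2 rose by 0.77. Their differences of cisplatin effects with and without GSK-J4 there were -0.04, 0.04 and 0.05, against -0.81 for FOSL2.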

How the data were processed

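RNA-seq libraries (TruSeq Stranded mRNA) of 36 samples were made by the study. According to its methods, reads were trimmed with Trimmomatic, aligned to GRCh38.p14 with STAR, counted per gene with featureCounts, filtered at low CPM and scaled with TMM; tool versions and the strand setting are not given in the sources used here. The deposited values are log2 CPM with a prior count of 3, so fold changes of low genes are understated. Under that formula 100% of the values below 50 reads came within 0.05 of a whole number, and reads and depth were recovered from it. Each experiment was fitted with limma-trend (limma 3.58.1, R 4.3.3) with 1 mean for each arm, without a replicate block, and with Benjamini-Hochberg adjustment over all genes. The fits were tested on simulated data. Alternatives were voom on recovered reads, total-read scaling, a prior count of 0.5, a mean log2 filter of 1, only the groups compared, a replicate block, other thresholds and leaving out each library. Levels per length used the MANE Select transcript in GENCODE release 44 (Python 3.11.15). Samples were grouped by the treatment labels and titles. All 10 members are named; on each list the largest rise and fall past both thresholds with pretreatment alone, the 3 genes closest to the member of widest spread, and KDM6A and KDM6B as a check. 1 gene that this rule names is not reported here. Members, lists and tests were chosen with earlier results of these data known. Counting intervals cover counting error only.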

Additional observations from a re-analysis of the deposited data

Results flagged for a closer look

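The cisplatin effect on FOSL2 in 2102EP-C1 differed between cells with and without GSK-J4 by -0.81 on the log2 scale in the test of the difference (limma-trend, adjusted p = 0.021). JUNB with cisplatin alone differed by 0.50 ± 0.16 in NT2/D1-A4 and by -0.12 ± 0.08 in pLKO.1 cells (SE; limma-trend, adjusted p = 0.053 and 0.27). Arms did not overlap in either. In untransduced 2102EP-C1 the JUNB difference was 0.06 ± 0.16, and the arms overlapped. DUSP1 differed by 0.28 with cisplatin after GSK-J4 in NT2/D1-A4 and by -0.16 in 2102EP-C1, with no overlap between arms in either. For JUNB and DUSP1 none of these differences passed the call, and the difference between the experiments was not tested.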

How the results depend on the processing

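The 15 counts of members called were recomputed under each alternative. The exception was the fit of only the compared groups, which left out the differences of cisplatin effects. With voom, total-read scaling, a prior count of 0.5, the low-value filter, only the compared groups or the replicate block, each count stayed within 1.5 times its main value, with JUNB gained for cisplatin alone in NT2/D1-A4 under total-read scaling and with only the compared groups, and EGR1 gained as a fall for GSK-J4 alone in NT2/D1-A4 at a prior count of 0.5. With the stricter thresholds (fold change over 1.2, adjusted p under 0.001), the count went from 2 to 1 for cisplatin alone in NT2/D1-A4 and in 2102EP-C1, from 1 to 0 for the difference of cisplatin effects in 2102EP-C1, and from 1 to 2 for cisplatin in sh6A+6B cells. It also went from 5 to 4 (IER3 lost) and from 3 to 2 (the fall of JUNB lost) for GSK-J4 within cisplatin in NT2/D1-A4 and 2102EP-C1, and from 4 to 5 for GSK-J4 alone, with EGR1 gained as a fall in NT2/D1-A4 and JUND gained in 2102EP-C1. With an adjusted p under 0.05 and no fold limit, it went from 4 to 7 for GSK-J4 alone in NT2/D1-A4, from 0 to 1 for cisplatin after GSK-J4 and 3 to 6 for GSK-J4 within cisplatin in 2102EP-C1, and in the knockdown experiment from 1 to 2 for cisplatin alone and for cisplatin with sh6A+6B, 0 to 5 for sh6A+6B alone, 1 to 5 for sh6A+6B within cisplatin and 0 to 1 for the difference of cisplatin effects. In the same order, the share of all genes called at that threshold was 48.3%, 15.7%, 49.4%, 36.1%, 44.8%, 52.8%, 61.6% and 35.1%. The count there also went from 4 to 6 for GSK-J4 alone in 2102EP-C1, where 35.2% of all genes passed. For GSK-J4 within cisplatin in NT2/D1-A4 it went from 5 to 7, where 48.4% of all genes passed. Leaving out 1 library gave 1 to 3 and 1 to 2 for cisplatin alone in NT2/D1-A4 and 2102EP-C1, 4 to 5 for GSK-J4 alone and within cisplatin in NT2/D1-A4, 0 to 2 for cisplatin after GSK-J4 and 0 to 1 for the difference in 2102EP-C1, and the main count for the other 9. No member called in the main fit changed direction. Of the recomputed values of these members, 194 kept their side of the thresholds and 5 lost it. With 1 library left out, 287 kept it and 13 lost it. Members gained are outside this tally, and the setting without a fold limit, on the same fit, could not lose a call. Whether the replicate numbers pair the libraries was not tested. The median correlation of same-numbered deviations was -0.02, 0.00 and 0.00 in the 3 experiments. The highest was 0.28, 0.1 and 0.31, with 3, 1 and 5 of 18 pairs over 0.1. In the same order, 5, 2 and 7 of 12 libraries lay closest to their own number. The replicate block left all 15 counts as they were. The low-value filter removed JUNB in NT2/D1-A4 and cut the genes called with cisplatin alone in pLKO.1 cells from 493 to 186. Genes tested there went from 16459 to 12647, and the share called went from 3.00% to 1.47%. Fitting only the compared groups cut the genes called for cisplatin after GSK-J4 in NT2/D1-A4 from 62 to 18. Depth limits JUNB and FOSL2 most, at 47 and 61 reads in their lowest libraries.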
